A study of Mus musculus with 20 samples.

Results

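Protocadherins were taken as every gene symbol that begins with Pcdh in the deposited count tables, which gave 57 of the 43280 gene symbols listed. They comprised 8 *Pcdha*, 22 *Pcdhb* and 15 *Pcdhg* genes, the clustered protocadherins, and 12 others that lie outside the clusters. RNA was sequenced from GFP+ cells sorted from the intestine and stomach at E13.5 and from adult intestine, with 2 libraries in each of 6 groups. Embryonic control cells came from Bapx1-cre;Rosa26mTmG mice, given as strain C57BL/6, and *Eed* KO cells carried Eedfl/fl in addition. Both genotypes thus carried Bapx1-cre and the reporter, and the sort followed the Bapx1-cre lineage. The study's reporting summary lists mixed strain backgrounds for the Rosa26mTmG and Eedfl lines, so the background may differ between the genotypes. Adult cells, labelled WT and EED-KO, came by the study's methods from mice of about 10 weeks that had received tamoxifen and carried *Pdgfrb*-CreERT2 and the Rosa26mTmG reporter, with Eedfl/fl in the knockout. ATAC-seq covered the 4 embryonic conditions, with 1 list of accessible regions for each. *Eed* encodes a core subunit of the repressive complex PRC2, and the comparisons ask how protocadherin expression differs between the organs and without *Eed*.

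Protocadherins are cadherin-related adhesion receptors of the cell surface. In the *Pcdha* and *Pcdhg* clusters, variable first exons with promoters of their own are spliced to shared constant exons, whereas each *Pcdhb* gene is a single variable exon, and neurons use stochastic combinations of these isoforms as a surface identity code. Non-clustered members of the delta group, such as *Pcdh8*, *Pcdh10* and *Pcdh19*, act in cell sorting and morphogenesis, and little of the family's textbook biology concerns gut mesenchyme.

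Counts on genes ranged from 30236159 to 39606157 in the embryonic and from 11404712 to 15903642 in the adult libraries, of which protocadherins took 0.0908% to 0.143% and 0.0139% to 0.0753%. A count of 0 allowed up to 0.0992 CPM (counts scaled to a common library size) in the embryonic and 0.263 CPM in the adult libraries (3 counts), for counting error alone. *Eed* was at 39.1 ± 1.45 CPM (SD, n = 2) in the control and 9.66 ± 1.52 CPM in the *Eed* KO intestine at E13.5, and at 40.8 ± 1.01 and 9.43 ± 2.86 CPM in the stomach. In the adult groups it was at 31.6 ± 2.62 CPM and 25.4 ± 0.455 CPM, a difference that did not pass the test (edgeR, adjusted p = 0.317). The 8 mesenchyme markers summed to 13320 to 24710 CPM in the embryonic libraries, to 11380 and 11900 CPM in the adult controls, and to 4984 and 3481 CPM in the adult *Eed* KO libraries. The 7 macrophage and leukocyte markers found in the table summed to 4.25 to 12.8 CPM in the embryo, to 611 and 776 CPM in the adult controls and to 15500 and 13950 CPM in the adult *Eed* KO libraries, so these last libraries were not of mesenchyme alone. Replicate 1 of both *Eed* KO organs had almost no *Xist* counts (0.0791 and 0.0537 CPM), whereas replicate 2 had 56.1 and 52.2 CPM. The Y-linked *Ddx3y* ran the other way, at 119 and 132 CPM in replicate 1 and at 0.0 and 0.0549 CPM in replicate 2. Replicate 1 was thus male and replicate 2 female. Each embryonic control library held both transcripts, with *Xist* at 36.6 to 126 CPM and *Ddx3y* at 30.5 to 80.3 CPM. This difference in sex bears on the X-linked *Pcdh11x* and *Pcdh19*.

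Levels spanned the whole range from silence to high expression, and the non-clustered members held most of the counts in the embryo. Of the counts on members, they took on average 70.7% in the control intestine and 79.5% in the control stomach. *Pcdhb* took 15.3% and 10.0%, *Pcdhg* 13.9% and 10.4% and *Pcdha* 0.102% and 0.0933%. These shares leave out the entries spelled in capitals that are described below. Of these, PCDHGB6 had a mean of 235 CPM over the embryonic libraries, beside a *Pcdhg* sum of 155 CPM in the control intestine. By level per length (TPM, from the deposited gene lengths), the highest member was *Pcdh18*, a delta protocadherin, with a mean of 303 TPM over the embryonic libraries. The next members were *Pcdh7* at 43.5, *Pcdhgb6* at 20.05 and *Pcdh19* at 19.3 TPM. *Pcdh18* lies on chromosome 3 (GRCm38, 49743296 to 49757325) and was at 524 and 501 CPM in the control intestine and 584 and 580 CPM in the control stomach. Its widest embryonic contrast, between the *Eed* KO organs, was 1.29-fold, and none passed the test.

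All 8 *Pcdha* genes were at or close to 0, with at most 24 counts in any embryonic and 12 in any adult library. The highest in the embryo were *Pcdha9* (0.260 TPM), *Pcdha5* (0.230 TPM) and *Pcdha10* (0.129 TPM), and 5 of the 8 had under 10 counts in every embryonic library. In the adult, *Pcdha10*, *Pcdha9* and *Pcdha8* were highest, at 0.239, 0.147 and 0.0916 TPM. Within *Pcdhb*, 21 of 22 genes reached a mean of 1 TPM in the embryo, with *Pcdhb17* (8.98 TPM), *Pcdhb20* (8.83 TPM) and *Pcdhb22* (8.10 TPM) at the top and close together. *Pcdhb1* alone in this cluster was nearly silent, with at most 2 counts in any library. Of the *Pcdhg* genes, 14 of 15 reached 1 TPM, led by *Pcdhgb6* (20.05 TPM), *Pcdhgb7* (14.1 TPM) and *Pcdhga7* (8.05 TPM). Thus most *Pcdhb* and *Pcdhg* variable exons were detected at once in these bulk samples, which do not tell whether single cells expressed 1 or many of them.

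Levels of the *Pcdha* and *Pcdhg* genes are lower limits because of how reads were counted. The gene models share constant exons among 8 *Pcdha* and among 15 *Pcdhg* members, and by the headers of the adult files a read pair that overlaps several genes was not counted, so in practice the variable exons were counted. A further 6 entries are spelled in capitals in the deposited tables (PCDHA4, PCDHA9, PCDHGA9, PCDHGA12, PCDHGB6, PCDHGC5), overlap the same models, and fall outside the rule. PCDHGB6 held 7183 to 10360 counts in the embryonic libraries, more than the 23 to 1371 counts of any *Pcdhg* member, and 14 to 139 in the adult ones. *Pcdhga10* had no adult counts, but in the unstranded adult counting an antisense gene model overlaps every one of its otherwise unshared bases, so its 0 is not a measure of expression.

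**Figure D1:**
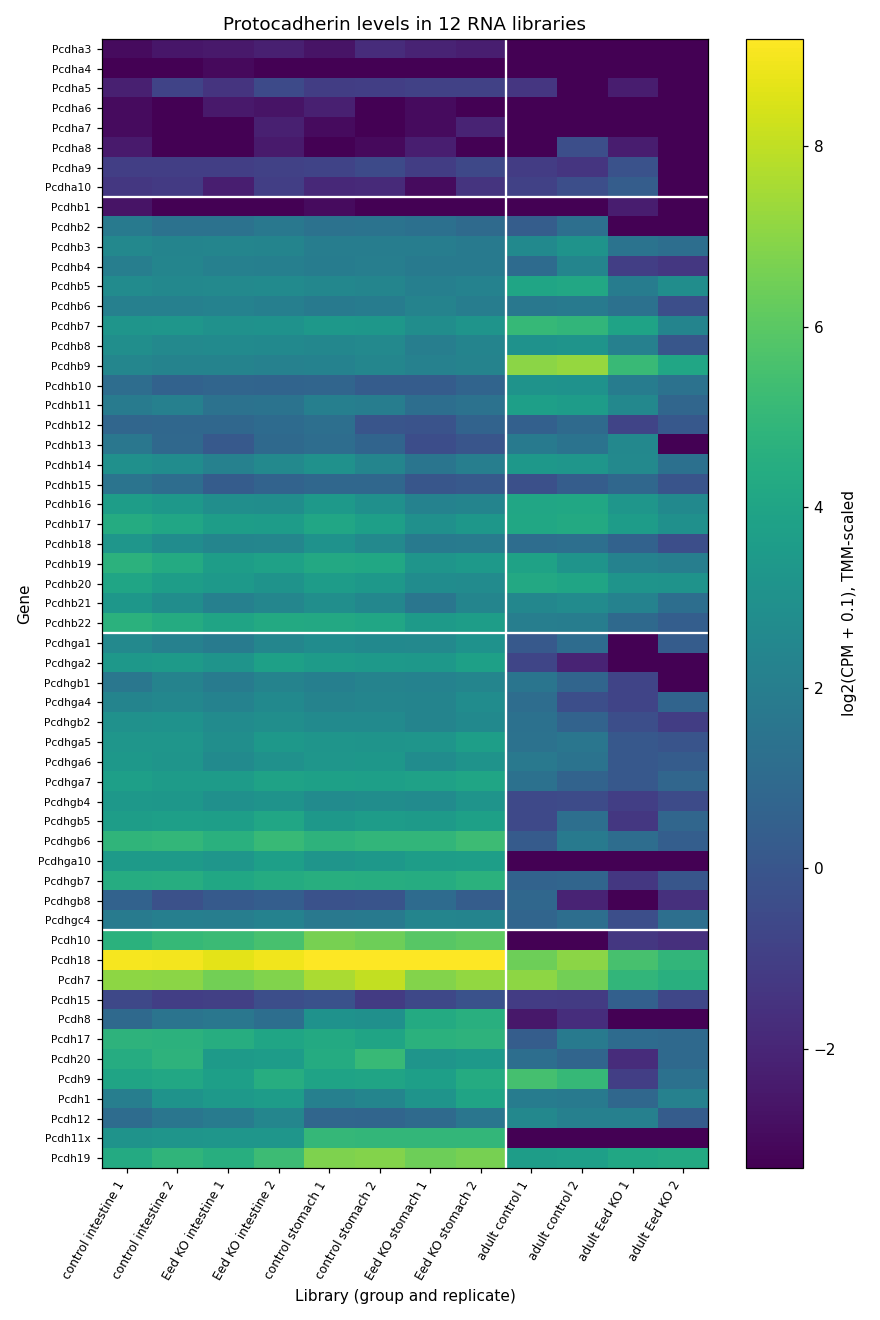
Heat map of 57 protocadherins (rows, by cluster and then the non-clustered genes) in 12 RNA libraries (columns), with colour for log2(CPM + 0.1) after TMM scaling, which was computed separately for embryonic and adult libraries. The *Pcdha* rows are dark throughout, *Pcdh18* is brightest in the embryo, and *Pcdhb9*, *Pcdh7* and *Pcdh18* are brightest in the adult controls.

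Between the control organs, 4 non-clustered protocadherins were lower in the intestine than in the stomach, and no clustered gene passed the test. They were *Pcdh8* (paraxial protocadherin), *Pcdh10*, *Pcdh11x* and *Pcdh19*. Calls required an adjusted p below 0.05 together with a change of more than 1 on the log2 scale, by edgeR over 16218 genes. Of the 12 non-clustered genes tested, 4 were called lower in the intestine and none higher, where 3.39% of all genes tested were called lower. The remaining 39 members tested were all clustered, and 6 members had too few counts.

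Promoter sequences of 3 of these genes, from 250 bases before to 50 bases after the start, are shown together with that of *Pcdh20*, the non-clustered gene that fell in the *Eed* KO stomach, because PRC2 is known to bind promoters rich in CG dinucleotides. Sequences are from RefSeq on GRCm38.p6 and read 5′ to 3′ on the strand of the gene, and capitals mark CG dinucleotides, which read alike on both strands.
Pcdh8 (chr14:79771263-79771562, minus strand): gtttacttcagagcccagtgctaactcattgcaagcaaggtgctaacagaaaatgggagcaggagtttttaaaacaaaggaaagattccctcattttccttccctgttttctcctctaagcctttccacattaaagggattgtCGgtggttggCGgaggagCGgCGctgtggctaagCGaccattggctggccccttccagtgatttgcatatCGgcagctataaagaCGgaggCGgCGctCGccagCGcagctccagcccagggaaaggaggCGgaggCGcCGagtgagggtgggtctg
Pcdh10 (chr3:45378148-45378447, plus strand): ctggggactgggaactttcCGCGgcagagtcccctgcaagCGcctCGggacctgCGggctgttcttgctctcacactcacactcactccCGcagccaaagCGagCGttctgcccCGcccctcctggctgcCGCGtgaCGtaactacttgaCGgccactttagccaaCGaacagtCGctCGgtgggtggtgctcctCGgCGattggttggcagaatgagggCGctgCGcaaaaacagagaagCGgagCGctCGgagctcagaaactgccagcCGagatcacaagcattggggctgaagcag
Pcdh19 (chrX:133688944-133689243, minus strand): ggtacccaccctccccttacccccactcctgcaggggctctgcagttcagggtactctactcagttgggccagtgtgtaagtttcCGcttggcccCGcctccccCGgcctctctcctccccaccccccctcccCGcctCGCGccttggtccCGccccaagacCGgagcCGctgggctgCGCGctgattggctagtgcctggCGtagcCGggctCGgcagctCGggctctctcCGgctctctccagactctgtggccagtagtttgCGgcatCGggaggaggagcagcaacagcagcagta
Pcdh20 (chr14:88471347-88471646, minus strand): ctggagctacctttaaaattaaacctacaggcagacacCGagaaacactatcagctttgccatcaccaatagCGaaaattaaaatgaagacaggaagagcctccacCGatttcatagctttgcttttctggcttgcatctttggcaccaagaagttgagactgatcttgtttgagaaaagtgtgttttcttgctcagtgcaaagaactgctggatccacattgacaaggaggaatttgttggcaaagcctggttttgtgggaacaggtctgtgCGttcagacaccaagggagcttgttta

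The CG count was 24 for *Pcdh10*, 18 for *Pcdh19*, 14 for *Pcdh8* and 4 for *Pcdh20*, beside a median of 7 over 32851 promoters. As many or more were held by 29.7% of those promoters for *Pcdh19*, 36.3% for *Pcdh8* and 68.6% for *Pcdh20*. A CG on either strand was present in 94.6% of them. These counts describe the windows and were not tested. A promoter was matched for 9 non-clustered members, and the others, at *Pcdh17*, *Pcdh18*, *Pcdh9* (2 starts), *Pcdh7* and *Pcdh15*, held 26, 23, 18 and 19, 11 and 8. The *Pcdh15* window (chr10:73821617-73821916) is a different promoter from the gene start at 73099342 that was used for the accessible regions.

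*Pcdh19*, an adhesion receptor whose human counterpart is linked to epilepsy in females, was at 20.004 and 28.6 CPM in the 2 control intestine libraries and at 109 and 118 CPM in the 2 control stomach libraries. Both stomach libraries lay far above both intestine libraries. The log2 fold change was -2.23 ± 0.26 (SE; edgeR, adjusted p = 0.0025), or 4.68-fold lower in the intestine. *Pcdh11x*, the other X-linked member, was at 8.40 and 9.15 CPM in the intestine and at 32.6 and 31.2 CPM in the stomach, with the tightest replicates of this group and a log2 fold change of -1.86 ± 0.11 (adjusted p = 0.000231). *Pcdh10*, an axon guidance protocadherin that recruits actin regulators, was at 25.3 and 33.3 CPM against 99.4 and 85.3 CPM. This was a log2 fold change of -1.66 ± 0.18 (adjusted p = 0.00194), again without overlap. *Pcdh8* was much less abundant, at 1.85 and 2.69 CPM in the intestine and 8.35 and 7.65 CPM in the stomach, a log2 fold change of -1.82 ± 0.24 (adjusted p = 0.0046). *Pcdh7*, a receptor also known as BH-protocadherin, passed the adjusted p alone, as did 4.43% of all genes in that direction. Its values were 132 and 129 CPM in the intestine and 195 and 267 CPM in the stomach, a log2 fold change of -0.82 ± 0.18 (adjusted p = 0.0344).

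The clustered genes had small differences between the control organs. The 21 *Pcdhb* genes tested had a median log2 fold change of 0.29, with 19 above 0, and the 15 *Pcdhg* genes a median of 0.06, whereas over all genes tested the median was 1.89e-05. The 12 non-clustered genes had a median of -0.20. Mesothelium markers summed to 324 and 504 CPM in the control intestine and 537 and 572 CPM in the control stomach, and epithelial markers to 67.4 and 106 CPM against 108 and 115 CPM, and their part in the organ differences was not tested. Scaled by the spike-in RNA in place of TMM, all 4 calls were lost (adjusted p from 0.578 to 0.985) while the log2 fold changes were -1.37 for *Pcdh10*, -1.54 for *Pcdh8*, -1.57 for *Pcdh11x* and -1.96 for *Pcdh19*, and the median of all genes moved to 0.297.

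**Figure D2:**
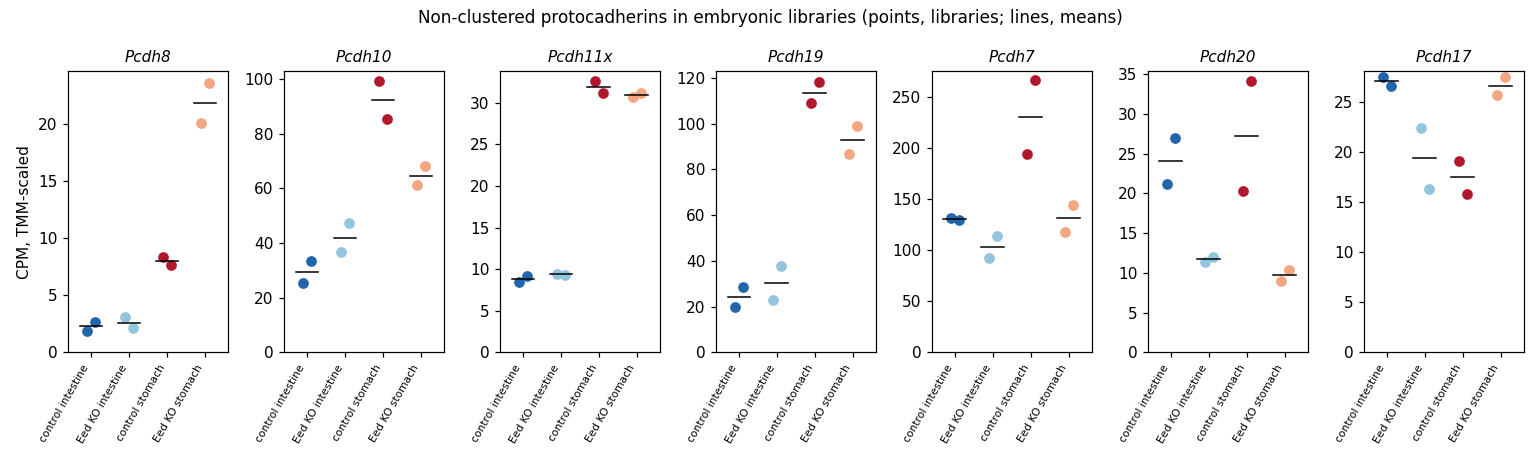
Levels of 7 non-clustered protocadherins in the embryonic groups, in CPM after TMM scaling on an axis from 0, with 1 point per library and a line at the mean of 2 libraries. For *Pcdh8*, *Pcdh10*, *Pcdh11x* and *Pcdh19* both stomach groups lie above both intestine groups, and *Pcdh8* is highest in the *Eed* KO stomach.

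The organ difference was still present in the *Eed* KO libraries for *Pcdh8*, *Pcdh11x* and *Pcdh19*. These 3 genes were called lower in the *Eed* KO intestine than in the *Eed* KO stomach, where 2.94% of all genes tested were called lower. *Pcdh11x* was at 9.42 and 9.36 CPM in the *Eed* KO intestine and 30.7 and 31.2 CPM in the *Eed* KO stomach, close to its control levels, with a log2 fold change of -1.72 ± 0.11 (edgeR, adjusted p = 0.000456). Replicate 1, with almost no *Xist*, and replicate 2 differed little in this X-linked gene. *Pcdh19* was at 22.9 and 37.6 CPM in the intestine and at 86.8 and 99.0 CPM in the stomach, higher in replicate 2 of both organs, and its log2 fold change of -1.62 ± 0.25 (adjusted p = 0.0116) lost the call without *Eed* KO stomach replicate 2 (-1.52, adjusted p = 0.0598). *Pcdh10* was at 36.8 and 47.2 CPM against 61.1 and 68.2 CPM, which did not pass (log2 fold change -0.62 ± 0.18, adjusted p = 0.09). *Pcdh8* had the widest gap, at 3.06 and 2.17 CPM against 20.1 and 23.6 CPM, a log2 fold change of -3.06 ± 0.24 (adjusted p = 0.0012) and 8.33-fold lower in the intestine. Scaled by spike-in RNA, *Pcdh8* kept its call (adjusted p = 0.0112) and *Pcdh11x* and *Pcdh19* lost theirs (0.527 and 0.855), at log2 fold changes of -1.98 and -1.76. Smooth muscle markers summed to 3243 and 5520 CPM in the *Eed* KO intestine and 1820 and 2059 CPM in the *Eed* KO stomach, with 4 of 6 called higher in the intestine, and their part in these differences was not tested.

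In the stomach, *Pcdh8* was called higher and *Pcdh20* and *Pcdhb18* lower in the *Eed* KO than in the control libraries, relative to the median of all genes. Over all genes tested, 4.84% were called higher and 0.808% lower in the *Eed* KO stomach, so that 1 member called higher of 51 tested was below and 2 called lower were above those shares. *Pcdh8* rose from 8.35 and 7.65 CPM to 20.1 and 23.6 CPM, a log2 fold change of 1.45 ± 0.22 (edgeR, adjusted p = 0.00935), and in the intestine it was at 1.85 and 2.69 CPM in the control and 3.06 and 2.17 CPM in the knockout, overlapping groups. *Pcdh20*, a non-clustered protocadherin on chromosome 14 (GRCm38, 88464743 to 88471396), fell from 20.3 and 34.2 CPM to 9.04 and 10.4 CPM. The log2 fold change was -1.49 ± 0.25 (adjusted p = 0.0137), and the control replicates differed from each other by more than the knockouts did. *Pcdhb18*, at 8.32 and 5.81 CPM in the control and 3.49 and 3.57 CPM in the knockout, lay at the threshold with a log2 fold change of -1.0004 ± 0.23 (adjusted p = 0.0432). With 2 libraries a group the calls were fragile: without *Eed* KO stomach replicate 2 none of the 3 was called, without replicate 1 of that group only *Pcdh8* was, without control stomach replicate 2 none was, and without control stomach replicate 1 only *Pcdh20* was. DESeq2 size factors, the block by number and DESeq2 with a spike-in factor each also ended the call of *Pcdhb18*.

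A further 4 members of the *Eed* KO stomach passed the adjusted p with a smaller change, all of them lower, where 1.95% of all genes passed in that direction. *Pcdhb19* went from 18.9 and 17.7 to 9.07 and 10.3 CPM (log2 fold change -0.92 ± 0.16, adjusted p = 0.0166), and *Pcdhb16* from 10.6 and 7.75 to 4.61 and 4.85 CPM (-0.95 ± 0.20, adjusted p = 0.0286). *Pcdhb17* went from 17.0 and 13.49 to 7.70 and 9.85 CPM (-0.80 ± 0.18, adjusted p = 0.041), and *Pcdh7* from 195 and 267 to 118 and 144 CPM (-0.82 ± 0.18, adjusted p = 0.0328). In each of the 4 genes both knockout libraries lay below both control libraries. The genes were picked by the test on these same libraries, so this separation adds no support. Without single libraries, *Pcdhb19* and *Pcdhb17* missed the threshold in every fit, and *Pcdhb16* and *Pcdh7* did not pass in every fit. The log2 fold changes then ran from -1.02 to -0.83 (*Pcdhb19*), -0.99 to -0.62 (*Pcdhb17*), -1.155 to -0.71 (*Pcdhb16*) and -1.03 to -0.57 (*Pcdh7*). Smooth muscle markers summed to 2853 and 2970 CPM in the control and 1820 and 2059 CPM in the *Eed* KO stomach, and mesothelium markers to 537 and 572 against 342 and 457 CPM, and their part in these changes was not tested.

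In the intestine, none of the 51 protocadherins tested with edgeR was called between *Eed* KO and control libraries, where 2.61% of all genes were called. At an unadjusted p under 0.05 there were 14 members, beside 14.02% of all genes. DESeq2 called 1 member and 2.56% of all genes with counts, and DESeq2 with a spike-in factor 3 members and 1.88%. *Pcdhb19* passed the adjusted p alone, as did 0.407% of all genes in that direction. It was at 25.8 and 20.2 CPM in the control and 12.2 and 14.2 CPM in the knockout, a log2 fold change of -0.80 ± 0.16 (adjusted p = 0.0459), and each of the 4 fits with 1 library fewer put it above 0.05 (adjusted p from 0.0837 to 0.274). *Pcdh20* was at 21.2 and 26.9 CPM in the control and at 11.3 and 12.04 CPM in the knockout, groups that did not overlap, but the change missed the threshold (log2 fold change -1.04 ± 0.25, adjusted p = 0.0748). It is the member that DESeq2 called, and it was also called by DESeq2 with a spike-in factor, by edgeR without the filter on low counts and by edgeR with a block for the replicate number (1 call each in these edgeR fits, beside 3.15% and 3.89% of all genes).

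Along the *Pcdhb* cluster the *Eed* KO differences were smaller in the first stretch of genes than in the last in both embryonic organs, with no trend described within either stretch. The cluster lies on chromosome 18 (GRCm38, 37264938 to 37524479), with *Pcdhb1* first and *Pcdhb22* last. The 9 genes tested from *Pcdhb2* to *Pcdhb10* had median log2 fold changes of -0.11 (intestine) and -0.19 (stomach), and the 12 from *Pcdhb11* to *Pcdhb22* had medians of -0.62 and -0.80. The boundary was chosen after the values were seen, so no test was made of it. In the stomach all 12 of the later genes lay below 0, from -1.24 for *Pcdhb13* to -0.44 for *Pcdhb12*. In the intestine 11 of them did, the exception being *Pcdhb12* at 0.13 ± 0.45, a gene that an antisense model overlaps. The adult *Eed* KO comparison had the reverse order, with a median of -1.69 for the first stretch and -1.06 for the last.

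The intestine and stomach comparisons share no library, although both organs were dissected from the same embryos and which libraries share embryos is not stated. In both, 19 of the 21 *Pcdhb* genes (90.5%) had a log2 fold change below 0, beside 2 of 15 *Pcdhg* genes (13.3%) and 35.9% of all 16218 genes tested. In the stomach 13 of the 15 *Pcdhg* genes lay above 0, with a median of 0.17 and a highest value of 0.96 ± 0.39 for *Pcdhgb8*, none passing the test. Summed *Pcdhb* levels were 186 and 154 CPM in the control and 121 and 127 CPM in the *Eed* KO intestine. Stomach sums were 152 and 131 against 87.7 and 99.8 CPM. All directions of the *Eed* KO comparisons are relative to the median of all genes. Scaled by spike-in RNA, that median was 1.85 in the intestine and 2.39 for the stomach on the log2 scale, *Pcdh20* and *Pcdh7* in the stomach turned to 0.91 and 1.62, all 21 *Pcdhb* genes then lay above 0, and their median stayed 0.346 and 0.497 below that of all genes.

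**Figure D3:**
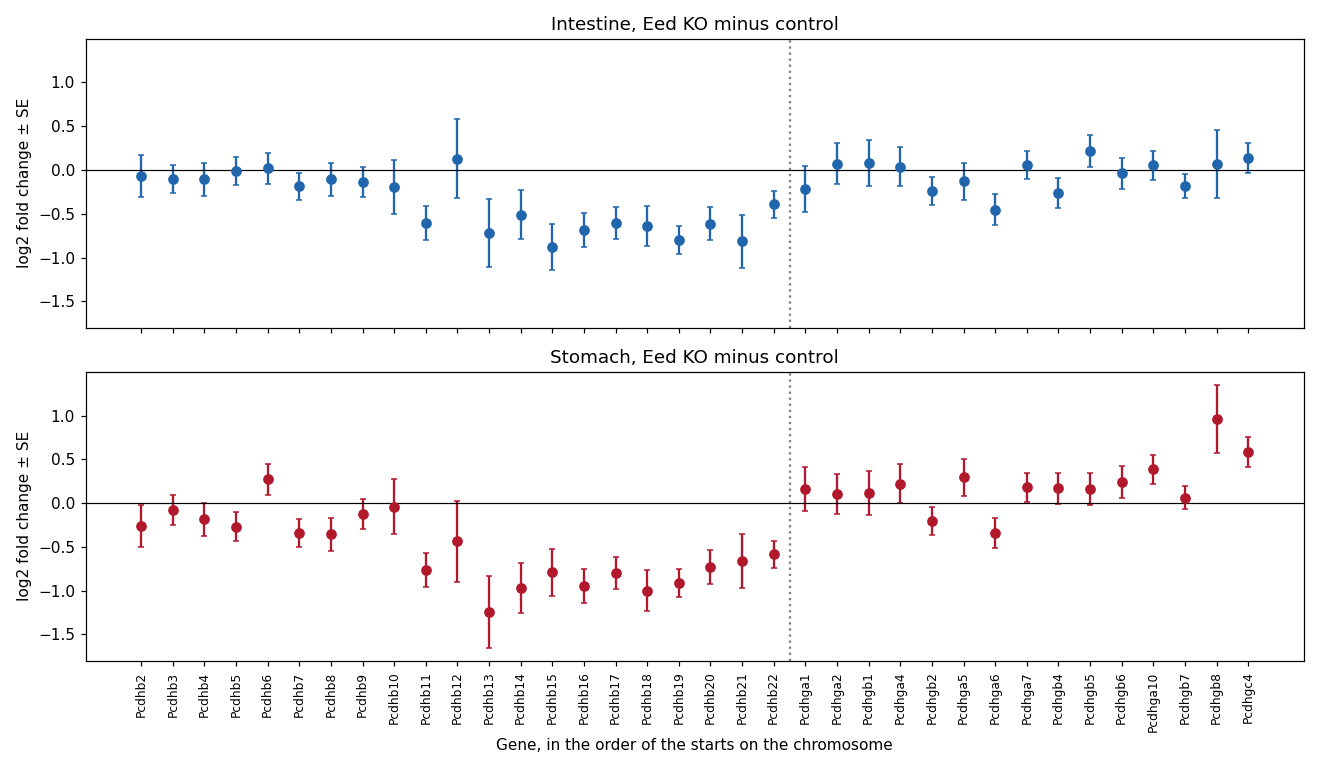
Log2 fold change with its SE of 21 *Pcdhb* and 15 *Pcdhg* genes (horizontal axis, in chromosomal order, split by a dotted line) between *Eed* KO and control, in the intestine (upper panel) and stomach (lower panel), with 2 libraries per group. Points from *Pcdhb11* to *Pcdhb22* lie lower than those of *Pcdhb2* to *Pcdhb10* in both organs, apart from *Pcdhb12* in the intestine, and *Pcdhg* points scatter around 0 in the intestine and mostly above it in the stomach.

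The difference of the *Eed* KO change between the organs was tested as an interaction, with calls at an adjusted p below 0.2 and a log2 difference of more than 1. No protocadherin was called with edgeR, where 0.462% of all genes were, and 3 of 51 had an unadjusted p under 0.05, beside 5.88% of all genes. DESeq2 called these 3 genes and 0.820% of all genes with counts. The same 3 were called by DESeq2 with a spike-in factor and by edgeR without the filter on low counts. They were also called by edgeR with a block by genotype and replicate number, though no label states that libraries of like number share embryos. *Pcdh17*, a delta protocadherin, was at 27.6 and 26.7 CPM in the control and 22.4 and 16.3 CPM in the *Eed* KO intestine, but at 19.2 and 15.8 CPM in the control and 25.7 and 27.5 CPM in the *Eed* KO stomach. The values were lower in both knockout libraries of the intestine and higher in both of the stomach, and the difference of the log2 changes was -1.09 ± 0.24 (adjusted p = 0.267). It reached the threshold without *Eed* KO intestine replicate 1 (adjusted p = 0.0901). *Pcdh10* moved the opposite way, with a difference of 1.03 ± 0.25 (adjusted p = 0.341), and for *Pcdh8* it was -1.24 (adjusted p = 0.434).

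Genes of other cell types were also measured beside these changes. Endothelial markers summed to 16.3 and 21.2 CPM in the control and 52.7 and 52.9 CPM in the *Eed* KO intestine, and to 17.6 and 17.9 against 29.6 and 51.7 CPM in the stomach. *Pcdh12*, a protocadherin of endothelial cells, was at 2.05 and 2.93 CPM and then at 3.54 and 5.16 CPM in the intestine, without passing the test (log2 fold change 0.81 ± 0.31, adjusted p = 0.279). *Pcdh1*, known from epithelia, was at 4.203 and 5.02 CPM in the control and 8.85 and 15.5 CPM in the *Eed* KO stomach (1.40 ± 0.38, adjusted p = 0.0716). It was called by edgeR without the filter, by edgeR with the block by number and by DESeq2, and not by DESeq2 with a spike-in factor. Epithelial markers summed to 108 and 115 CPM in the control and 88.5 and 122 CPM in the knockout, none of 8 was called, and their log2 fold changes ran from -0.40 to 2.26 with a median of 0.29. Their part in the change of *Pcdh1* was not tested. Enteric neural crest and neuronal markers summed to 7.81 to 17.9 CPM over the embryonic libraries and skeletal muscle markers to 7.71 to 34.3 CPM, and their part in any change was not tested. Fewer cells of a type and less RNA per cell cannot be told apart in bulk samples.

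Adult control libraries had another protocadherin profile, in which *Pcdhb9* stood out. Summed over all members, the level was 629 and 642 CPM in the adult controls and 1122 and 1099 CPM in the embryonic control intestine, from tables that were normalized separately, and *Pcdhb* took on average 51.2% of the adult control counts. *Pcdhb9* was at 128 and 150 CPM, or 117 TPM, in the adult controls and at 5.28 and 4.68 CPM, or 4.88 TPM, in the embryonic control intestine, 23.9 times as high per length. *Pcdhb7*, at 33.3 and 30.4 CPM, and *Pcdhb5*, at 16.2 and 17.9 CPM, were also higher per length in the adult, by 2.98 and 2.41 times, as were *Pcdhb10* and *Pcdhb11* by 4.08 and 2.75 times. Of 21 *Pcdhb* genes, 11 were higher and 10 lower in the adult, with *Pcdhb22* and *Pcdhb18* lowest relative to the embryo, at 0.144 and 0.232 times. By mean adult TPM over both genotypes, *Pcdhb9* (65.9), *Pcdhb7* (14.2) and *Pcdhb20* (8.38) led their cluster. *Pcdh18* (31.8), *Pcdh7* (16.1) and *Pcdh9* (7.60) led the non-clustered genes, and *Pcdhga6* (0.987), *Pcdhgb6* (0.930) and *Pcdhga5* (0.919) the *Pcdhg* genes.

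The *Pcdhg* genes were low in the adult, and several non-clustered genes of the embryo were barely detected. Of the *Pcdhg* genes that reached 1 TPM at either age, *Pcdhga10* has nothing left to count in the adult, and all 13 others were lower per length in the adult control than in the embryonic control intestine. *Pcdh11x* had 0 counts in each of the 4 adult libraries and *Pcdh10* 0 in both controls and 3 in each knockout, at the floor. *Pcdh8* had 1 and 3 counts in the controls. *Pcdh17* and *Pcdh20* were at 0.598 and 0.891 TPM in the adult controls, beside 8.54 and 13.1 TPM in the embryonic control intestine. Age, sorted lineage, library kit and sequencing depth differ together between these libraries and cannot be told apart.

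In the adult *Eed* KO libraries 13 of 40 protocadherins tested were called, all lower than in the adult controls. DESeq2 with a spike-in factor called 6 of them lower, beside 2.78% of all genes with counts. Over all 15039 genes tested 7.23% were called lower and 12.3% higher. They comprised 10 *Pcdhb* genes and *Pcdh7*, *Pcdh9* and *Pcdh18*, and the median log2 fold change was -1.35 for 21 *Pcdhb*, -1.28 for 11 *Pcdhg* and -0.86 for 8 non-clustered genes, beside 0.00125 for all genes. The *Pcdhb* median is the same with *Pcdhb2*, which had no counts in the knockouts, at its bound. *Pcdh9* fell most among genes with counts in each library, from 45.2 and 33.1 CPM to 0.401 and 2.47 CPM, a log2 fold change of -4.69 ± 0.62 (edgeR, adjusted p = 0.00252). *Pcdhb9*, the leading adult member, fell from 128 and 150 CPM to 35.1 and 17.0 CPM (-2.42 ± 0.35, adjusted p = 0.0035). *Pcdh7* fell from 133 and 92.9 CPM to 29.7 and 23.9 CPM (-2.07 ± 0.25, adjusted p = 0.00166), and *Pcdh18* from 86.2 and 128 CPM to 47.3 and 30.2 CPM (-1.47 ± 0.29, adjusted p = 0.0127). In these 4 genes no knockout library reached the lower of the controls, which adds no support because the test on the same libraries picked them.

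*Pcdhb2* had 16 and 32 counts in the controls and none in either knockout, at least 18.5-fold lower when set against 3 counts over the knockout group (adjusted p = 0.0143). *Pcdhb4* went from 27 and 72 counts to 4 in each knockout library, with a log2 fold change of -3.28 ± 0.77 (edgeR, adjusted p = 0.0231). *Pcdhb5* went from 16.2 and 17.9 to 3.71 and 6.80 CPM (-1.69 ± 0.37, adjusted p = 0.0175) and *Pcdhb7* from 33.3 and 30.4 to 15.1 and 4.95 CPM (-1.68 ± 0.48, adjusted p = 0.0428). Changes of the other 5 were smaller: *Pcdhb3* -1.60, *Pcdhb19* -1.47, *Pcdhb10* -1.43, *Pcdhb16* -1.16 and *Pcdhb20* -1.01, with adjusted p from 0.0354 to 0.044. *Pcdh19* was among 2 members above 0, at 12.2 and 13.2 CPM in the controls and 17.2 and 19.2 CPM in the knockouts, without passing the test (0.52 ± 0.25, adjusted p = 0.186).

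Adult calls depended on single libraries, and cell type markers also differed between the adult groups. The 7 mesenchyme markers tested had a median log2 fold change of -1.31, and 11 of the 13 called protocadherins lay below that value, 4 of them (*Pcdhb2*, *Pcdh9*, *Pcdhb4* and *Pcdhb9*) by more than 1. A call itself required a change of more than 1, so the count of 11 was in large part set by that rule. Over the 40 members tested, 19 lay below and 21 above it. The leukocyte markers rose as given above. Smooth muscle markers summed to 1820 and 2257 CPM in the controls and 3149 and 3707 CPM in the knockouts (3 of 6 called higher), endothelial markers to 106 and 104 against 155 and 231 CPM (2 of 8), and enteric neural crest and neuronal markers to 4.98 and 4.41 against 22.6 and 22.3 CPM (1 of 5 tested). The part of any of these in the calls was not tested. Without adult control replicate 1 or 2 there were 7 calls, without adult *Eed* KO replicate 2 there were 6, and without adult *Eed* KO replicate 1 there were 15. *Pcdh7*, *Pcdh9*, *Pcdh18*, *Pcdhb5* and *Pcdhb9* were called in each of these 4 fits. *Pcdhb13* shows how unlike the knockouts could be, with 56 counts in replicate 1 and 0 in replicate 2.

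**Figure D4:**
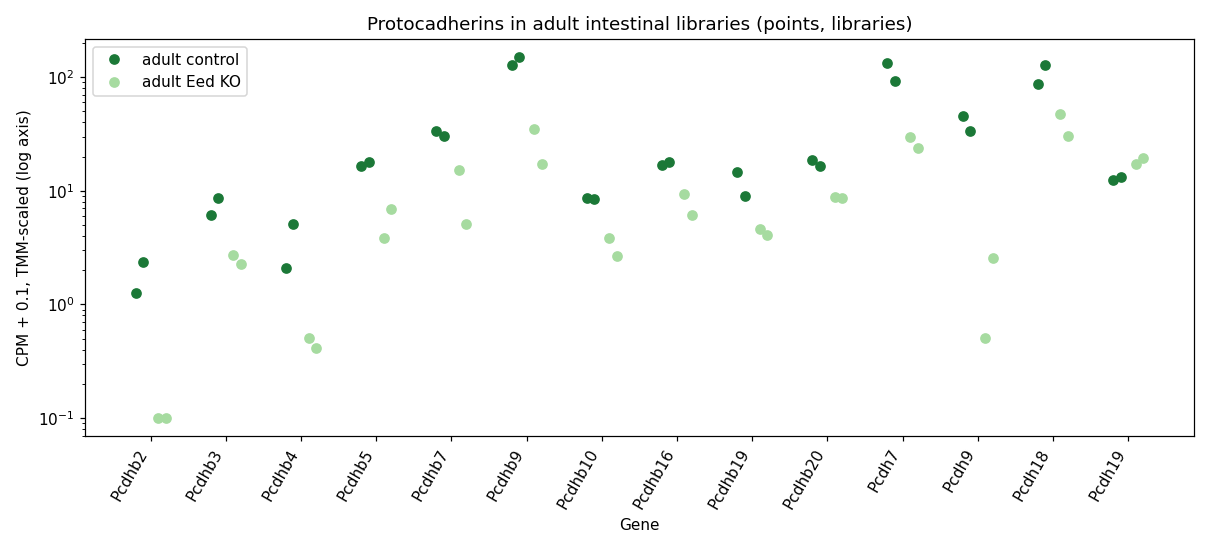
Levels of the 13 protocadherins called in the adult and of *Pcdh19* in 2 control and 2 *Eed* KO libraries, as CPM + 0.1 after TMM scaling on a log axis, with 1 point per library. For all 13, picked by the test on these same libraries, both knockout points lie below both control points. *Pcdhb2* is at 0 CPM in both knockouts.

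Accessible regions at the gene starts separated the family by cluster in the embryo. A start was counted as accessible where a region of the list lay within 1000 bp. All 12 non-clustered genes had 1 in each of the 4 lists, including *Pcdh15*, which was at only 0.0607 TPM in the control intestine. Of the 15 *Pcdhg* genes, 12 had one in the control intestine, 12 in the control stomach and 14 in each *Eed* KO list. Only 4 of them kept a region in each control list at a −log10 q of 5 or more, with 8 in the *Eed* KO intestine and 7 in the *Eed* KO stomach, whereas 11 of the 12 non-clustered genes did in every list. Of the 22 *Pcdhb* genes, 1, 2, 5 and 0 had one in the control intestine, control stomach, *Eed* KO intestine and *Eed* KO stomach, none of them at that q, and no *Pcdha* gene had one in any list. Over the genes tested by RNA-seq, 87.8% to 88.9% had an accessible start.

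Most *Pcdhb* genes had RNA but no listed region at the start. In the control intestine 20 of the 21 *Pcdhb* genes without a region were at 1 TPM or more, up to 12.1 TPM, with a median of 4.18. The median was 5.80 TPM for the 12 *Pcdhg* genes with a region and 4.97 TPM for the 3 without. The *Pcdhg* levels are lower limits, so they do not compare directly with those of *Pcdhb*. Of the *Pcdhb* genes, *Pcdhb19* had a region in 3 lists, with fold enrichments (over the MACS2 background) of 3.11, 3.04 and 2.42 in the control intestine, *Eed* KO intestine and control stomach. None of the 3 reached a −log10 q of 5.

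The 4 genes called between the control organs were accessible in both organs, as were all 12 non-clustered genes. At *Pcdh8* the fold enrichment was 8.10 in the control intestine and 8.04 in the control stomach, at *Pcdh10* 4.64 and 4.92, at *Pcdh19* 4.96 and 4.86 and at *Pcdh11x* 4.08 and 4.40. The *Pcdh11x* region was 837 bp wide in the control intestine but 3619 bp in the control stomach, and 3498 and 3474 bp in the *Eed* KO intestine and stomach. Control widths were close at *Pcdh10* (2736 and 2727 bp) and *Pcdh19* (2763 and 2754 bp). With 1 list per condition there is no replicate error for these values and no test. The *Pcdh8* region was 656 and 624 bp wide in the controls and 2996 and 1367 bp wide in the *Eed* KO intestine and stomach, with fold enrichments of 5.81 and 6.15, though its RNA was called higher in the *Eed* KO stomach alone. *Pcdh20* had regions of 4.81 and 5.03 fold in the controls and 4.91 and 4.80 fold in the knockouts, nearly the same in all lists. Among *Pcdhg* genes with a region in both lists, enrichment was higher in the *Eed* KO at 8 of 12 in the intestine and 9 of 11 in the stomach, beside 31.0% and 45.5% of all tested genes with a region in both lists, and 5 and 4 of the 12 non-clustered genes. Examples are *Pcdhgb6* at 4.35 and 6.32 (intestine) and 4.48 and 8.04 (stomach). *Pcdhgb7* went the other way, from 7.39 to 4.85 and from 7.54 to 5.04.

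**Figure D5:**
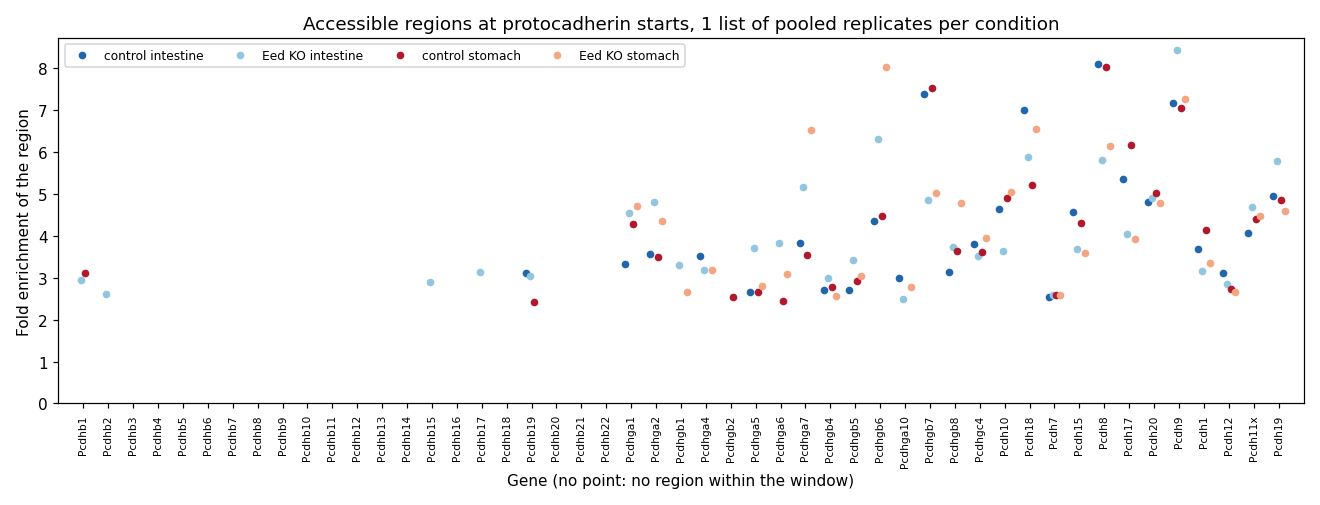
Fold enrichment over the MACS2 background of the accessible region within 1000 bp of each *Pcdhb*, *Pcdhg* and non-clustered gene start, with 1 point for each of 4 lists of pooled replicates and no point where the list has no region. *Pcdhb* starts are almost empty, *Pcdhg* starts lie mostly between 2.44 and 8.04, and each non-clustered start has 4 points.

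Genes that act with protocadherins or are related to them were called in part. Of all genes tested, 5.07% were called between control organs, 2.61% in the *Eed* KO intestine, 5.65% in the *Eed* KO stomach and 4.40% between *Eed* KO organs, in either direction. In the adult *Eed* KO, 12.3% of all genes tested were called higher and 7.23% lower. Cell type markers also differed between the adult groups, as given above, and their part in the adult calls below was not tested. Of 16 regulators of clustered promoters, among them *Ctcf* and cohesin subunits, which loop enhancers to these promoters, 15 were in the tables and tested, and none was called in any embryonic contrast, with *Dnmt3a* alone called in the adult *Eed* KO (log2 fold change 1.16 ± 0.33, edgeR, adjusted p = 0.0429). Of 13 binding partners and effectors, *Nlgn1*, a synaptic adhesion protein, was called higher in the intestine than the stomach in both genotypes (2.34 and 1.73) and higher in the *Eed* KO stomach (1.06). Adult *Eed* KO libraries had *Abi1*, *Cyfip2* and *Ptk2b* called higher and *Nlgn1* lower. Of 14 related large cadherins, 10 were tested in the embryo. *Fat3*, a giant cadherin, was called lower in the intestine than the stomach in both genotypes (-1.64 and -1.49), *Dchs2* lower in the *Eed* KO intestine than the *Eed* KO stomach (-2.53), and *Celsr3* higher in both knockouts (3.23 and 2.64) from under 0.2 CPM. *Fat4* was the only 1 of 6 tested that was called in the adult, lower at -1.51. Of 9 classical cadherins, *Cdh13* and *Cdh5* were called higher and *Cdh4* lower in the control intestine than the stomach. *Cdh5*, the endothelial cadherin, was higher in both knockouts (2.80 and 3.70), *Cdh13* was higher in the knockout stomach than its control and higher still in the knockout intestine, and *Cdh11*, a mesenchymal cadherin, fell in the adult (-2.42) while *Cdh6* rose (1.76).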

How the data were processed

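RNA-seq counts were deposited by the authors without normalization, as read pairs per gene symbol from STAR and featureCounts on GRCm38/mm10 and GENCODE vM4. The strand setting of the embryonic counting is not given in the sources used here. Peaks were deposited by the authors as MACS2 2.1.2 lists of pooled replicates each peak having its fold enrichment and −log10 q-value.

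Counts were scaled by TMM and tested by quasi-likelihood in edgeR 4.0.16 (R 4.3.3) after filterByExpr, with Benjamini-Hochberg adjustment over all genes. The embryonic fit held 8 libraries in 4 groups and the adult fit 4 libraries in 2. The procedure was also run on simulated counts, with 200 genes changed well beyond the call threshold. Differences in sex or cell content were not simulated, so that run does not bear on calls near the threshold or on mixed samples. Exact permutation of 2 against 2 libraries cannot go below p = 0.333 (two-sided), so none is given. Nothing states that libraries came from separate litters, and p-values measure the spread between these libraries. Named genes were the called members, those past the adjusted p alone, and the 3 highest per cluster and age. A few others (*Pcdh1*, *Pcdh12*, *Pcdh15*, *Pcdhb12*, *Pcdhb13*, *Pcdhgb8*) were named after their values were seen. Members and gene lists were chosen with earlier results of these data known. Alternatives were DESeq2 1.42.0, other scalings, no filter, replicate blocks, 1 spike-in factor and leaving out each library.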

Additional observations from a re-analysis of the deposited data

Results flagged for a closer look

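Changes in opposite directions in the 2 organs, with both *Eed* KO libraries on 1 side of both controls in each organ, flagged 3 genes. The share of all genes that meet this rule was not counted, so the number flagged is not a result about protocadherins. On the log2 scale *Pcdh10* changed by 0.52 in the intestine and by -0.51 in the stomach. *Pcdh17* changed by -0.48 and 0.61. *Pcdh11x* changed by 0.098 and -0.046, which are small changes in a gene with close replicates. The interaction of edgeR gave adjusted p of 0.341, 0.267 and 1.00 for these genes, so none passed in that fit. *Pcdh10* and *Pcdh17* did pass in edgeR without the filter on low counts, in edgeR with either block, and in DESeq2 with and without a spike-in factor.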

How the results depend on the processing

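Libraries numbered alike were no proven pairs: correlations of deviations were 0.34 between the control organs, 0.714 between the *Eed* KO organs, 0.104 to 0.24 across genotypes and -0.073 in the adult. With the replicate block by number, calls were 4 between control organs, 1 in the *Eed* KO intestine and 3 in the *Eed* KO stomach (*Pcdh1* in place of *Pcdhb18*). They were 3 between *Eed* KO organs, 2 for the interaction and 11 in the adult. A block by genotype and number, which took same-numbered libraries of the 2 organs together, gave 3 for the interaction. No label states that such libraries share embryos.

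Scaling by spike-in totals gave 0 calls between control organs, 33 and 44 in the *Eed* KO intestine and stomach, 1 between *Eed* KO organs and 16 in the adult, with medians of all genes at 0.297, 1.85, 2.39, -0.244 and -0.418. It turned *Pcdhb19* in the intestine to 1.08, and in the stomach *Pcdh7* to 1.62, *Pcdh20* to 0.91, *Pcdhb16* to 1.47, *Pcdhb17* to 1.68, *Pcdhb18* to 1.41 and *Pcdhb19* to 1.52, all below the median of all genes. Without the filter on low counts there were 1, 5 and 3 calls in the *Eed* KO intestine, the *Eed* KO stomach and the interaction. DESeq2 gave 1 in the intestine and 3 for the interaction, and with 1 RUVg spike-in factor 3 in the intestine, 5 in the stomach, 3 for the interaction and 6 in the adult. DESeq2 size factors in edgeR moved no count beyond 1.5 times.

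Without single libraries, counts ranged from 4 to 5 between control organs, 2 to 3 between *Eed* KO organs, 0 to 2 in the *Eed* KO stomach, 0 to 1 for the interaction and 6 to 15 in the adult, and stayed at 0 in the intestine. Only peaks at a −log10 q of 5 or more left 15, 19, 15 and 18 accessible starts, in place of 25, 31, 26 and 26, in the control intestine, *Eed* KO intestine, control stomach and *Eed* KO stomach. Windows of 500 and 5000 bp moved none beyond 1.5 times. Summed levels of the embryonic over the adult control intestine were 1.75 times after TMM, 1.45 on library totals, 1.66 as TPM and 1.29 per unshared exonic length, an alternative chosen after seeing the data. Depth limits the *Pcdha* genes and the adult members near 0.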

Other observations

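The capital-letter entry PCDHA9, whose model spans shared exons of the *Pcdha* cluster and which falls outside the symbol rule, rose from 45 and 58 counts in the control stomach libraries to 136 and 169 without *Eed*, a log2 fold change of 1.57 (edgeR, adjusted p = 0.0367). In the intestine it had 30 and 27 counts in the control and 59 and 112 in the knockout (log2 fold change 1.43, edgeR adjusted p = 0.101). The member *Pcdha9* had 16 and 24 counts in the control stomach and 14 and 20 in the *Eed* KO stomach.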
